A study of Mus musculus with 5 samples.

Results

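Heat shock and chaperone genes were followed through the CD45+ cells of mouse flank tumours. The 10 genes are Hspa1a, Hspa1b, Dnajb1, Dnaja1, Hsph1, Hspa8, Hsp90aa1, Hsp90ab1, Hspe1 and Hspd1, taken by symbol from the 32285 genes of the deposited matrices, and all 10 were found. The tumours grew from Lewis Lung Carcinoma cells, a lung cancer line of mouse origin, placed under the skin of the flank in mice. The injected cells carried either a Scramble guide RNA (Scramble, 3 libraries) or an sgRNA against JAG2, the gene of a Notch ligand (JAG2KO, 2 libraries). The guide was in the tumour cells only, so the immune cells studied here came from hosts without an edit named in the labels. All tumours were taken at endpoint, dissociated with the enzyme mix Liberase, and sorted for CD45+/PI- cells, that is for live cells that carry CD45, found on cells of the blood lineage. The labels give no strain, age or sex of the mice, do not say whether the edited cells were 1 clone, and do not say whether a library is 1 tumour or a pool, so p-values measure the spread between these libraries.

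Heat shock proteins are chaperones, which bind unfolded proteins and help them fold, and many of their genes are switched on by the heat shock factor Hsf1 when unfolded proteins build up. Hsp70 proteins (Hspa1a and Hspa1b, inducible by stress, and Hspa8, made in most cells without it) bind short exposed stretches of a client and release them with ATP. J-domain proteins (Dnajb1, Dnaja1) bring clients to Hsp70, Hsph1 exchanges its nucleotide, the Hsp90 proteins (Hsp90aa1, inducible, and Hsp90ab1, constitutive) complete the folding of kinases and receptors, and Hspd1 with its lid Hspe1 forms a folding chamber in mitochondria. Inducible members are also known to respond to enzymatic dissociation of tissue, which every sample here went through.

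Hspa1a (ENSMUSG00000091971, chr17:34969190-34972156, GRCm38, minus strand) and Hspa1b (ENSMUSG00000090877, chr17:34956436-34959238, minus strand) lie 9951 bases apart. Their 250 bases before the start site are shown because both genes followed each other across the cell types. They are identical at 247 of 250 positions, and the capitals mark the 2-unit heat shock element that a search found in each. Sequences are from RefSeq, build GRCm38.p6, 5′ to 3′ on the minus strand, chr17:34972157-34972406 and chr17:34959239-34959488.
Hspa1a: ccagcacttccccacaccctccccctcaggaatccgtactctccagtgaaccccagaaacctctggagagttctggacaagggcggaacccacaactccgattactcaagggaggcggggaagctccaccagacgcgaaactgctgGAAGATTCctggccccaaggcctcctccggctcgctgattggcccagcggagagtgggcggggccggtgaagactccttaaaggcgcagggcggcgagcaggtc
Hspa1b: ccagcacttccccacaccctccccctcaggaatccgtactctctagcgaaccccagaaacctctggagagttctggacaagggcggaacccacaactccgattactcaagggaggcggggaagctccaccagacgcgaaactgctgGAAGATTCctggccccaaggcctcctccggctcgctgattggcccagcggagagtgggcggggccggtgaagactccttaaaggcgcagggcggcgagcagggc
The coding sequences agreed at 99.43% of aligned positions and the parts after the stop codon at 47.31%. None of 411 windows of 90 bases from the last 500 bases of Hspa1a was found in Hspa1b, and the 3′ assay reads this end. Reads from the shared coding part could still be split or dropped between the pair by the counting, so the level of each single gene carries that uncertainty.

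Promoter windows (250 bases before to 50 after a start site) were at hand for 7 of the 10 genes. The 3-unit heat shock element, spelled GAANNTTCNNGAA or TTCNNGAANNTTC, was searched as both spellings, each the other's reverse complement, so both strands were covered. It was found in windows of 3 of the 7 genes (Hsph1, Hspe1 and Hspd1) and in 198 of all 32851 windows (0.603%). The matches of Hspe1 and Hspd1 are the same bases read on opposite strands. The 7 genes had 12 windows, so a count of genes is not on the scale of a share of windows. The 2-unit element, GAANNTTC or TTCNNGAA, which lies inside every 3-unit match, was found for 6 of the 7 and in 15.1% of all windows, and Dnajb1 had no match to either. These matches describe letters, not sites in use. The element of Hspe1, whose first base is 89 bases before the start site, covers 18 bases that hold 2 overlapping 3-unit matches, and it lies in an exon of Hspd1, the neighbour on the other strand. Hspe1 (chr1:55088132-55091307) and Hspd1 (chr1:55077835-55088243) overlap by 112 bases at their starts. The 30 bases around the elements of Hspe1 (chr1:55088053-55088082, plus strand) and Hsph1 (chr5:149636279-149636308, minus strand, in an exon of Hsph1, first base at position 15 from a start site) are shown with the element in capitals.
Hspe1: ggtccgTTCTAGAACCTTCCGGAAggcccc
Hsph1: gctgcagaTTCTGGAAAGTTCtcctcagta

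The libraries held 10262 to 21854 cell barcodes and 84788907 to 111680641 unique molecular identifiers (UMIs, counted RNA molecules), and 7563 to 17791 cells were kept. JAG2KO 2 stood apart with the most cells and a median of 2445 UMIs per cell, against 7664 to 8617 in the other 4 libraries. Pairs of libraries shared 26 to 74 barcodes, at most 0.633% of the smaller library. Cells were assigned to types by counts of marker genes, none of which is among the 10 genes, and 70.2% to 79.7% of cells per library were assigned. Macrophages were the most numerous (4039 to 12692 per library, 32293 in all), followed by neutrophils (2440), monocytes (1892) and T cells (1170). Dendritic cells gave 271 cDC1 (the cross-presenting subset), 553 cDC2 (the subset that presents mainly to CD4 T cells) and 397 mature migratory cells carrying Ccr7. Their own marker list was the highest of all lists in every library for each of these 3 subsets. A group of 599 cells is called tumour-like, with Rhox5 at 602 to 644 CPM. They were low in C1q genes and carried at least 2 of Rhox5, Krt8 and Krt18, or passed the fibroblast gate with a UMI of Rhox5. Ptprc, which encodes CD45, was at 17.9 to 36.6 CPM in this group against 447 to 561 CPM in macrophages. The highest marker list of the group was that of fibroblasts, a list by which the gate could admit its cells. As the check of the targeted gene, the tumour-like cells held 0, 5 and 4 UMIs of Jag2 in Scramble 1, 2 and 3 against 3 and 0 with JAG2KO, so few that they say nothing of the labels. An edit by a guide RNA also need not remove the transcript's 3′ end, which the assay counts.

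Levels are given as CPM, the share of a gene among all UMIs summed over the cells of a type in 1 library, on a scale where 10000 CPM is 1%. A type was used in a library with at least 20 of its cells, so non-classical monocytes and mast cells or basophils had 4 libraries. Values are in the order Scramble 1, 2 and 3, then JAG2KO 1 and 2, and a mean ± SD is over these libraries. The assay counts 3′ ends and the values are not scaled to length, so levels are compared between cell types within a gene and not between genes. A lower level in a type may also come from a mixture with other cells, and in summed cells fewer expressing cells and less RNA per cell cannot be told apart.

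The inducible Hsp70 genes had their lowest means in tumour-like cells. Their means over all libraries ranked high in cDC2 and in non-classical monocytes, where both genes were higher in Scramble than in JAG2KO. In JAG2KO 1 and 2, Hspa1a was at 625 and 549 CPM in cDC2 and at 396 and 575 CPM in non-classical monocytes. Macrophages of these libraries were at 841 and 698 CPM. Hspa1a averaged 927 ± 313 CPM in cDC2, 922 ± 146 in monocytes, 910 ± 529 in non-classical monocytes and 872 ± 126 in cDC1. In macrophages it was at 598, 668, 742, 841 and 698 CPM, and in mature migratory dendritic cells at 805, 885, 873, 737 and 689 CPM. The first 10 types in the order of means overlapped each with its neighbour, down to neutrophils at 451 ± 128 CPM. Below them, without overlap, came the tumour-like cells at 112, 70.1, 75.4, 127 and 142 CPM. Hspa1b averaged 804 ± 439 CPM in non-classical monocytes, 695 ± 105 in mature migratory dendritic cells, 684 ± 238 in cDC2, 620 ± 119 in T cells, 598 ± 63.1 in monocytes, 595 ± 129 in cDC1, 591 ± 388 in mast cells or basophils, 523 ± 43.4 in macrophages and 519 ± 84.0 in NK cells. Neutrophils (250, 218, 196, 359 and 357 CPM) lay below NK cells without overlap, and tumour-like cells (155, 136, 173, 126 and 177 CPM) lay below neutrophils, again without overlap. Non-classical monocytes, with 20 to 24 cells per library used, had the widest spread of these types in both genes (SD 529 and 439 CPM).

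**Figure D1:**
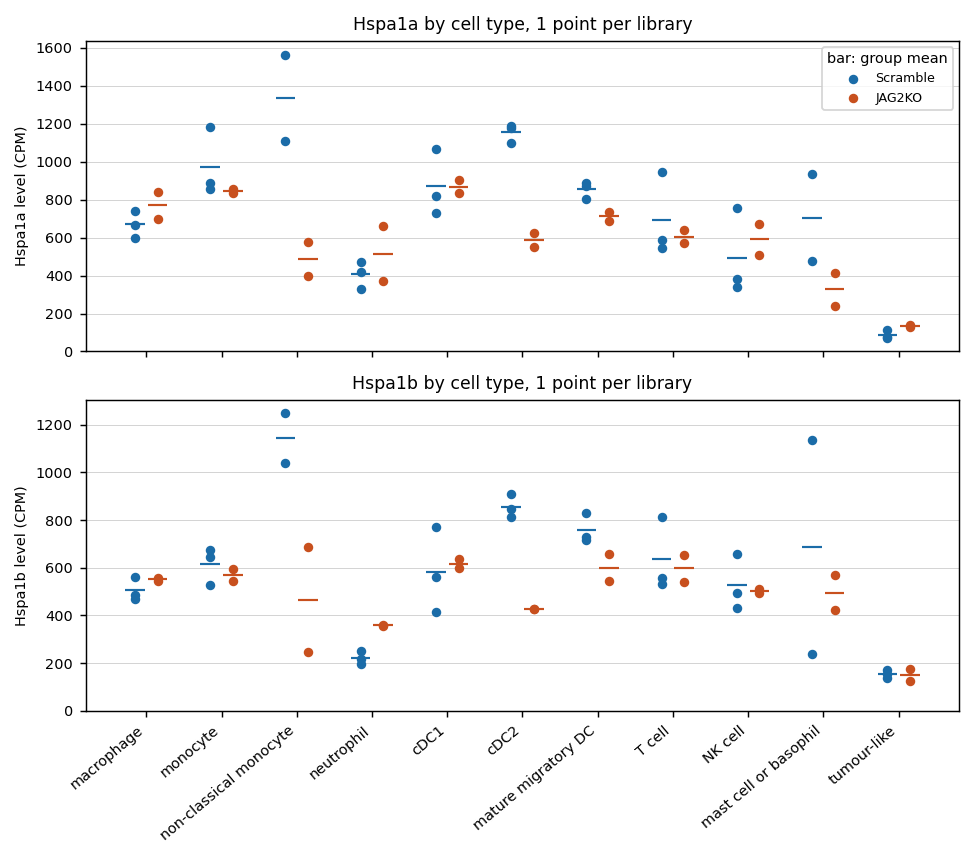
Levels of Hspa1a (upper panel) and Hspa1b (lower panel) in CPM by cell type, with 1 point per library of at least 20 cells and a bar at each group mean. In cDC2 the 3 Scramble points of Hspa1a lie between 1097 and 1189.7 CPM and the 2 JAG2KO points at 625 and 549 CPM.

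The Hsp70 partners had another order. Dnajb1, the J-domain protein most tied to the heat shock response, averaged 455 ± 302 CPM in mast cells or basophils and 389 ± 46.8 in tumour-like cells, against 180 ± 30.8 in T cells, and tumour-like and T cells did not overlap. It was 133 ± 38 CPM in cDC2. Its mean was lowest in macrophages at 66.4, 78.4, 79.1, 75.1 and 81.7 CPM, which overlapped with monocytes at 78.5, 72.4, 101, 58.3 and 73.2 CPM. Dnaja1, a J-domain protein of the cytosol, was spread more evenly, from 558 ± 71.8 CPM in T cells and 456 ± 83.2 in cDC2 to 317 ± 29.7 in macrophages and 281 ± 32.1 in mature migratory dendritic cells, and all neighbours in the order overlapped. Hsph1, the Hsp70 nucleotide exchange factor, averaged 189 ± 35.8 CPM in T cells, 185 ± 26.3 in tumour-like cells and 156 ± 26.7 in cDC1, and was lowest in neutrophils at 11.3, 23.1, 18.4, 42.4 and 54.7 CPM.

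Hspa8, the constitutive Hsp70, was highest in dendritic cells. It averaged 2731 ± 327 CPM in cDC1 and 2291 ± 333 in cDC2, and cDC1 exceeded cDC2 in 5 of 5 libraries. Tumour-like cells (2008 ± 234 CPM), mature migratory dendritic cells (2007 ± 258), monocytes (1932 ± 294) and macrophages (1798 ± 147) followed with overlapping ranges. Neutrophils were lowest at 565, 729, 628, 834 and 757 CPM, without overlap with any other type in the order.

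Both Hsp90 genes were highest in tumour-like cells. Hsp90aa1 averaged 1703 ± 263 CPM there, 1479 ± 151 in T cells, 1312 ± 181 in cDC1 and 1196 ± 206 in cDC2, and every neighbour in its order overlapped down to macrophages at 923 ± 64.3 CPM. Hsp90ab1 stood further apart: tumour-like cells had 5531, 6011, 6250, 7157 and 5935 CPM, and the next type, cDC2, had 2549 ± 245 CPM. cDC1 (2521 ± 166 CPM), mature migratory dendritic cells (2444 ± 109), NK cells (2435 ± 124) and T cells (2324 ± 236) overlapped with cDC2 in turn. Neutrophils were at 461, 678, 491, 564 and 714 CPM, below every other type without overlap.

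The mitochondrial pair was highest in tumour-like cells and lowest in neutrophils. Hspe1, the lid, was at 962, 936, 1045, 1103 and 1218 CPM in tumour-like cells and at 638, 586, 592, 613 and 677 CPM in cDC1, with no overlap between these types. Macrophages (336 ± 42.7 CPM) lay above monocytes (248 ± 11.6 CPM) without overlap, and neutrophils were lowest at 101 ± 24.9 CPM. Hspd1, the chamber subunit, was at 650, 668, 753, 904 and 765 CPM in tumour-like cells and averaged 243 ± 39.99 in cDC1, 192 ± 4.81 in macrophages, 161 ± 18.6 in cDC2 and 48.4 ± 10.7 in neutrophils. Hspd1 in macrophages varied little among libraries, from 186 to 197 CPM, with 5 of 5 libraries above cDC2.

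To ask which types differed from macrophages, all sums were fitted together by edgeR's quasi-likelihood test with the library as a block, and p-values were adjusted over the 9661 genes tested (Benjamini-Hochberg, threshold 0.05). Differences below are log2 ratios of the fitted levels ± SE. Most types differed from macrophages in a large share of genes, so the count of chaperone genes is read against that share. In cDC1, 8 of the 10 were higher and 0 lower, where 23.6% of all genes were called higher and 50% in either direction. In cDC2, 7 were higher and 0 lower (21.3% of all genes higher, 47.3% either way). In mature migratory dendritic cells 6 were higher and 0 lower (26.3% higher, 59.5% either way). The median difference over the 10 genes was 0.52 in cDC1, 0.49 in cDC2 and 0.45 in mature migratory dendritic cells, where the median of all genes was -0.06, -0.10 and -0.16.

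In cDC1 the largest differences were Dnajb1 at 1.14 ± 0.17 (edgeR adjusted p = 5.01e-08), Hspe1 at 0.998 ± 0.097 (adjusted p = 6.22e-13) and Hspa8 at 0.71 ± 0.09 (adjusted p = 9.11e-10). Hspa1a (0.40 ± 0.22) and Hspa1b (0.29 ± 0.20) were the 2 that did not pass in cDC1, with edgeR adjusted p = 0.125 and 0.233. In cDC2 Dnajb1 differed by 0.91 ± 0.16, Dnaja1 by 0.65 ± 0.11, Hsp90aa1 by 0.50 ± 0.13 and Hspa1b by 0.50 ± 0.20 (edgeR adjusted p = 0.0328). Hspa1a at 0.50 ± 0.22 had edgeR adjusted p = 0.0538. The fit averages over both groups. Hspa1b in cDC2 exceeded macrophages in Scramble 1, 2 and 3 (911, 811 and 845 against 469, 484 and 561 CPM). It lay below them in JAG2KO 1 and 2 (425 and 426 against 545 and 559 CPM), and Hspa1a did likewise. In mature migratory dendritic cells Hspe1 (0.76 ± 0.10), Hspa1b (0.69 ± 0.20), Dnajb1 (0.69 ± 0.19) and Hsp90ab1 (0.51 ± 0.10) were among the 6 called, and Hspd1 (-0.18 ± 0.13), Hsph1 (-0.10 ± 0.19) and Dnaja1 (0.11 ± 0.12) were not.

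Tumour-like cells split the 10 genes. Hspa1a was lower than in macrophages by -2.76 ± 0.23 (edgeR adjusted p = 1.26e-15) and Hspa1b by -1.80 ± 0.20 (adjusted p = 1.07e-11). The other called genes were higher: Dnajb1 by 2.32 ± 0.15, Hspd1 by 1.93 ± 0.11, Hspe1 by 1.63 ± 0.10, Hsp90ab1 by 1.52 ± 0.10, Hsp90aa1 by 0.85 ± 0.13, Hsph1 by 0.81 ± 0.14 and Dnaja1 by 0.28 ± 0.11. Hspa8 at 0.13 ± 0.09 did not pass (adjusted p = 0.153). That is 7 of 10 higher, where 38.2% of all genes were called higher and 77.2% in either direction. These cells also had more UMIs than other types (medians of 18446 to 45090 per cell against 2648 to 10456 in macrophages), and their part in the result was not tested.

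In neutrophils, where 69.8% of all genes were called, 5 of the 10 genes were lower than in macrophages: Hsph1 by -1.35 ± 0.22, Hspd1 by -1.27 ± 0.14, Hsp90ab1 by -1.11 ± 0.11, Hspe1 by -1.01 ± 0.11 and Hspa8 by -0.61 ± 0.09. Dnaja1 and Hsp90aa1 (both 0.92 to 2 decimals) and Dnajb1 (0.88 ± 0.17) were called higher, but with library totals in place of the TMM scaling they were at 0.15, 0.15 and 0.09 and were not called, and the 5 lower genes stayed lower. Library totals also put Hspa1a (-0.67) and Hspa1b (-0.99) below macrophages by the test, where TMM gave 0.10 ± 0.22 and -0.22 ± 0.21 without a call. The change of scaling moved the median of all genes from -0.23 to -1.02, and the share of called genes that were higher from 43.7% to 21.6%. With library totals 63.3% of all genes were called lower. In cells of at least 3000 UMIs, Hsp90aa1 was at -0.06.

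Monocytes, with 55.9% of genes called, had Hspa1a (0.53 ± 0.22, edgeR adjusted p = 0.0324), Dnaja1 (0.32 ± 0.11) and Hspa8 (0.25 ± 0.09) above macrophages, and Hspd1 (-0.67 ± 0.11), Hsph1 (-0.41 ± 0.15) and Hspe1 (-0.27 ± 0.10) below. In T cells, with 63% of genes called, Dnajb1 (1.18 ± 0.16), Hsph1 (0.77 ± 0.16), Dnaja1 (0.72 ± 0.11), Hsp90aa1 (0.57 ± 0.13) and Hspe1 (0.34 ± 0.10) were higher and Hspa8 (-0.28 ± 0.09) was lower. NK cells, with 51.9% of genes called, had Dnajb1 (1.16 ± 0.18), Hspe1 (0.68 ± 0.10), Dnaja1 (0.45 ± 0.12) and Hspd1 (0.34 ± 0.12) higher and Hspa8 (-0.37 ± 0.09) lower. The call of Hspd1 was kept in 6 of 13 alternatives (0.09 to 0.39) and was lost without Scramble 1, Scramble 3 or JAG2KO 1 (edgeR adjusted p up to 0.613). Mast cells or basophils had Dnajb1 higher by 2.58 ± 0.22 and Hspa8 lower by -0.33 ± 0.10 (28.9% of genes called), and non-classical monocytes had Hspd1 (-1.03 ± 0.21) and Hspe1 (-0.62 ± 0.15) lower (20.5% called). Library totals in place of TMM moved the median of all genes from -0.16 to -0.48 in mature migratory dendritic cells, from -0.08 to -0.24 in monocytes, from -0.10 to -0.23 in cDC2, from -0.06 to -0.17 in cDC1, from -0.41 to -0.55 in mast cells or basophils and from -0.33 to -0.21 in non-classical monocytes. The share of called genes that were higher moved from 44.3% to 29.5% in mature migratory dendritic cells, from 44.4% to 30.4% in monocytes, from 45.1% to 33.1% in cDC2 and from 38.3% to 50.9% in non-classical monocytes. In cDC1 the same 8 genes stayed called. In mature migratory dendritic cells 3 genes were then called, where 19.1% of all genes were higher and 45.7% lower. Hspa1b (0.39), Dnajb1 (0.37), Hspa8 (0.15) and Hsp90aa1 (0.07) were not called, and Hspd1 was called lower (-0.48). In monocytes Hspa1a (0.38), Dnaja1 (0.17) and Hspa8 (0.09) lost their calls and Hsp90ab1 was called lower (-0.29). Hspa1b in cDC2 (0.35) and Hspa8 in T cells (-0.17) also lost theirs. Other calls were kept in only part of the alternatives: Hspa8 in monocytes in 6 of 13, Hsp90aa1 in mature migratory dendritic cells in 6, Dnaja1 in tumour-like cells in 6 of 12, Hspa1a in monocytes in 7 of 13, and Hspa1b in cDC2 and Dnaja1 in monocytes in 8. Leaving out Scramble 1 ended each of these 6 calls, Scramble 2 all but that in tumour-like cells, Scramble 3 all but that of Hspa1a, JAG2KO 1 those in mature migratory and tumour-like cells, and JAG2KO 2 that in tumour-like cells. Leaving out Scramble 1 left 3 of the 10 genes called in mature migratory dendritic cells, and leaving out Scramble 1 or Scramble 2 left 3 in monocytes. Without JAG2KO 2 the counts were 8 in cDC1, 9 in cDC2, 7 in mature migratory dendritic cells, 9 in tumour-like cells and 8 in neutrophils.

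**Figure D2:**
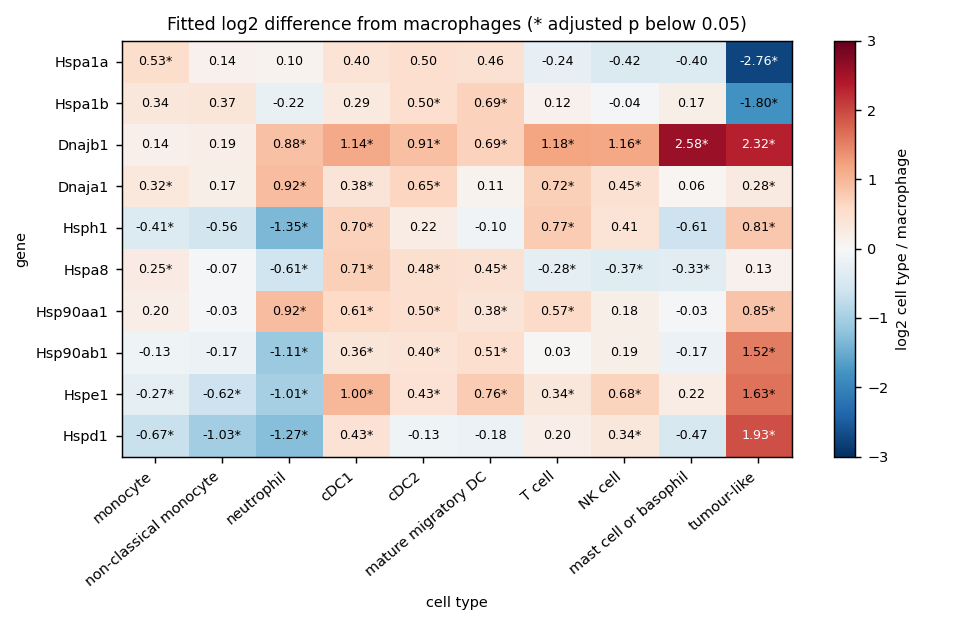
Fitted log2 difference of each gene (rows) between each cell type (columns) and macrophages, in log2 units by colour and number, with a star where the edgeR adjusted p is below 0.05. The Dnajb1 row is positive in all 10 columns and reaches 2.58 in mast cells or basophils, while the tumour-like column runs from -2.76 for Hspa1a to 2.32 for Dnajb1.

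Within dendritic cells Hspe1, Hspd1, Hsph1, Hspa8 and Dnaja1 each passed in at least 1 of the 3 subset comparisons, and Hspa1a, Hspa1b, Dnajb1, Hsp90aa1 and Hsp90ab1 in none. Against cDC1, cDC2 had Hspe1 lower by -0.57 ± 0.10, Hspd1 by -0.56 ± 0.12, Hsph1 by -0.47 ± 0.18 (edgeR adjusted p = 0.0488) and Hspa8 by -0.23 ± 0.09 (adjusted p = 0.0471), 4 of 10 lower where 11.5% of all genes were called lower and 25% either way. Of 13 alternatives, the call of Hspa8 was kept in 2 (-0.15 to -0.27, edgeR adjusted p up to 0.449) and that of Hsph1 in 6 (-0.34 to -0.60, adjusted p up to 0.427). Leaving out any 1 library ended the call of Hspa8, and leaving out Scramble 3, JAG2KO 1 or JAG2KO 2 that of Hsph1. Mature migratory dendritic cells had Hsph1 (-0.80 ± 0.21), Hspd1 (-0.60 ± 0.13) and Hspa8 (-0.26 ± 0.09) below cDC1, with 45.4% of genes called. Against cDC2 they had Hspe1 higher by 0.34 ± 0.10 and Dnaja1 lower by -0.54 ± 0.13, with 43.5% of genes called; the call of Hspe1 was kept in 7 of 13 alternatives and was lost without Scramble 2, Scramble 3 or JAG2KO 2. With library totals 7 of the 10 genes were lower in mature migratory dendritic cells than in cDC1, where 31.3% of all genes were lower. The median of all genes moved from -0.01 to -0.22 and the share of called genes that were higher from 48.8% to 35.2%. Against cDC2, Hspe1 then lost its call (0.18), Hsph1 was lower (-0.51), the median of all genes moved from -0.04 to -0.22 and the share from 47.5% to 35.2%. Leaving out Scramble 3, JAG2KO 1 or JAG2KO 2 left 2 genes called between cDC2 and cDC1. Hspa1a differed by 0.10 ± 0.22 (cDC2 over cDC1), 0.06 ± 0.23 (mature over cDC1) and -0.04 ± 0.23 (mature over cDC2), and Hspa1b by 0.21 ± 0.20, 0.40 ± 0.21 and 0.19 ± 0.20. These values average over both groups. Hspa1a in JAG2KO 1 and 2 was at 625 and 549 CPM in cDC2 against 904 and 833 in cDC1. In Scramble 1, 2 and 3 it was at 1097, 1175 and 1189.7 against 1069, 730 and 821 CPM. Plasmacytoid dendritic cells reached 20 cells in 2 libraries only, where Hspa1a was at 586 CPM (Scramble 3) and 224 CPM (JAG2KO 1), and they were not tested.

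The co-variation of the 10 genes was described over 58 sums of 14 cell types, which share libraries, so no p is given. Hspa1a and Hspa1b correlated with each other (Pearson's r of log2(CPM + 1) 0.86) and little or negatively with the rest, Hspa1a with Dnajb1 at -0.39 and with Hspd1 at -0.49. Hsp90ab1, Hspe1 and Hspd1 formed the tightest trio, at 0.91 for Hsp90ab1 with Hspe1, 0.88 with Hspd1 and 0.91 for Hspe1 with Hspd1. Among 8382 genes outside the lists used here (those averaging 10 CPM or more), the 5 most like Hspa1a were Cdc42 (0.80), Tmsb4x (0.79), Cotl1 (0.77), Crip1 (0.76) and Elmo1 (0.75). The 5 most like Hsp90ab1 were Rpl14 (0.91), Npm1 (0.91), Rpl13 (0.90), Rpl26 (0.89) and Rps2 (0.88), that is 4 ribosomal protein genes and nucleophosmin.

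**Figure D3:**
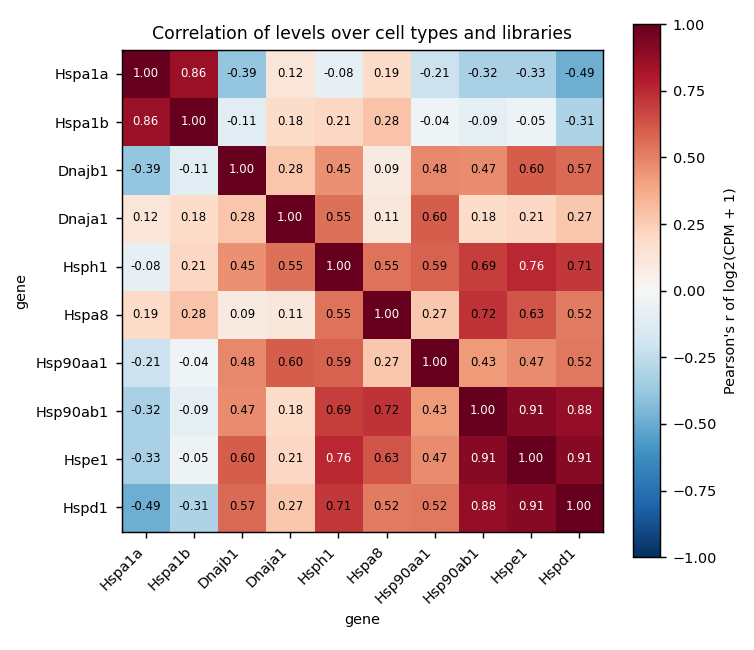
Pearson's r of log2(CPM + 1) between each pair of the 10 genes over 58 sums by cell type and library, by colour and number. Hspa1a and Hspa1b (0.86) form 1 block and Hsp90ab1, Hspe1 and Hspd1 (0.88 to 0.91) another.

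Cell by cell, Hspa1a, Hspa1b and Hsp90aa1 varied most in macrophages by the Fano factor, defined below. Macrophages were thinned to 1000 UMIs each, which left out 62 to 2399 shallower cells per library, most of them in JAG2KO 2. A UMI of Hspa1a was then found in 35.7% to 40.2% of macrophages, of Hspa1b in 30.4% to 34.2%, of Hspa8 in 74.6% to 80.6% and of Hsp90ab1 in 81.5% to 84.7%; without thinning the share for Hspa1a was 60.0% to 80.1%. No type here lacks these genes, but tumour-like cells gave a low reference, with Hspa1a in 6.45% to 16.9% of thinned cells. The Fano factor (variance over mean, 1 for pure counting) was 2.32 to 2.76 for Hspa1a, 2.05 to 2.32 for Hspa1b and 1.54 to 2.49 for Hsp90aa1, against at most 1.46 for each of the other 7 genes. Thinned macrophages rarely had a UMI of Dnajb1 (7.6% in JAG2KO, 7.0% in Scramble) or Hsph1 (9.5% and 9.8%). At such low counts the factor says little of the spread of these 2 genes. The 10% of macrophages richest in Hspa1a held 50.7% to 53.5% of its UMIs. Macrophages with a UMI of Hspa1a had one of Hspa1b 2.04 to 2.97 times as often as macrophages without, one of Hsph1 1.64 to 2.42 times and one of Dnajb1 1.78 to 1.99 times. These ranges are over the 5 libraries and describe cells of the same library.

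To ask whether deletion of JAG2 in the tumour cells went with other chaperone levels in the host's cells, JAG2KO was compared with Scramble within each type by edgeR's quasi-likelihood test, adjusted over all genes tested in that type. Of 107 tests over 11 types, 2 passed, both in cDC2. Hspa1a in cDC2 was at 1097, 1175 and 1189.7 CPM in the Scramble libraries and at 625 and 549 CPM in the JAG2KO libraries, so the groups did not overlap. It fell by 0.96 ± 0.14 on the log2 scale (edgeR adjusted p = 0.00198). Hspa1b in cDC2 was at 911, 811 and 845 CPM against 425 and 426 CPM, again without overlap, and fell by 1.002 ± 0.14 (adjusted p = 0.00198). In this comparison 0.489% of 7161 genes were called, and 0.293% of the 7161 were called lower. In a separate count from the same cells, each thinned to 1000 UMIs, Hspa1a had a UMI in 31.2% ± 8.93 of JAG2KO and 45.6% ± 4.78 of Scramble cDC2 cells (SD, n = 2 and 3; unthinned 62.6% and 77.7%). The two-sided exact permutation p was 0.2, the smallest that 3 against 2 libraries can give, so none of the 110 such tests could pass.

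Another 4 of the genes lay lower in both JAG2KO libraries than in all Scramble libraries of cDC2 without passing the test. Dnajb1 was at 143, 145 and 184 CPM against 104 and 87.4 CPM (-0.70 ± 0.19, edgeR adjusted p = 0.119), and Hsp90aa1 at 1303, 1359 and 1373 against 996 and 949 CPM (-0.46 ± 0.13, adjusted p = 0.126). Dnaja1 (-0.39 ± 0.15, adjusted p = 0.358) and Hsph1 (-0.49 ± 0.18, adjusted p = 0.331) had smaller differences. With Hspa1a and Hspa1b that made 6 of 10 genes lower without overlap, where 13% of all genes were. The constitutive and mitochondrial genes overlapped between groups: Hspa8 was at 2126, 2727 and 2545 CPM against 2141 and 1917, Hsp90ab1 at 2295, 2914 and 2520.4 against 2646 and 2369, Hspe1 at 405, 427 and 382 against 396 and 444, and Hspd1 at 154, 141 and 165 against 191 and 155. The median over the 10 genes was -0.43, and that of all genes -0.001. Hspa1b lost its call when the gate asked for 1 more marker per cell (-0.83, edgeR adjusted p = 0.0586), and Hspa1a kept it under every alternative tried for this comparison. Without JAG2KO 2, the library that stood apart, Hspa1a was at -0.90 (edgeR adjusted p = 0.0115) and Hspa1b at -1.02 (adjusted p = 0.00722).

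**Figure D4:**
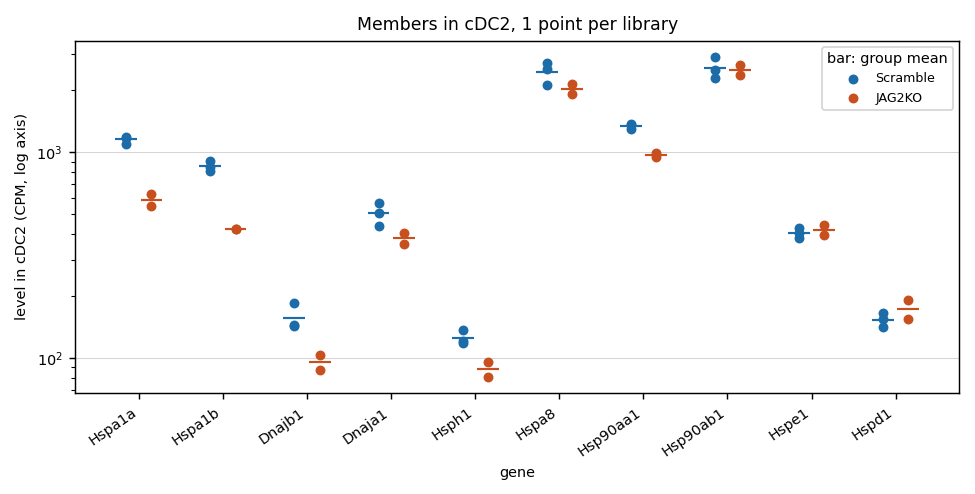
Levels of the 10 genes in cDC2 in CPM on a log axis, with 1 point per library and a bar at each group mean. Hspa1a and Hspa1b show the widest gaps, and for Hspa8, Hsp90ab1, Hspe1 and Hspd1 the points of both groups overlap.

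Other values moved with the group in the same cDC2 sums. The 7 markers of neutrophils summed to 204, 134 and 102 CPM in the Scramble libraries against 30.2 and 24.7 CPM, those of monocytes to 1070, 1185 and 1376 against 913 and 601 CPM, and those of mature migratory dendritic cells to 530, 406 and 363 against 618 and 642 CPM. Markers of macrophages summed to 1139, 1725 and 1273 CPM in Scramble against 1023 and 1117 CPM. Those of plasmacytoid dendritic cells summed to 428, 394 and 503 against 386 and 290 CPM, and those of cDC1 to 578, 609 and 554 against 652 and 741 CPM. Some lists with lower sums also separated the groups. The 7 cDC2 markers themselves summed to 3233 to 3341 CPM in Scramble against 3673 and 3331 CPM. The 20 immediate early genes of the dissociation list summed to 10831, 13051 and 11303 CPM in Scramble against 9894 and 10046 CPM. Cell numbers were 87, 92 and 109 against 185 and 80, and median UMIs per cell 6836, 8099 and 8348 against 8283 and 6656. The part of these values in the fall of Hspa1a and Hspa1b was not tested.

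Non-classical monocytes gave the lowest fitted values of both genes but did not pass. Hspa1a was at 1107 and 1562 CPM in Scramble 1 and 3, against 396 and 575 CPM (-1.44 ± 0.29, edgeR adjusted p = 0.181), and Hspa1b at 1039 and 1247 against 245 and 686 CPM (-1.30 ± 0.38, adjusted p = 0.342). These sums rest on 20 to 24 cells per library, 8 of the 10 genes passed the filter on low counts, and 0 of 1718 genes were called (104 at an unadjusted p under 0.05). Markers of monocytes or macrophages summed higher than those of non-classical monocytes in all 4 libraries, and the non-classical list itself was at 1954 and 1955 CPM in Scramble against 1088 and 1796 CPM. Leaving out Scramble 1 gave both genes a call (-1.67 and -1.43, edgeR adjusted p = 0.000658 and 0.0105), as did leaving out JAG2KO 2 (-1.73 and -2.19, adjusted p = 0.000946 and 3.6e-05). Each such fit left 1 library in an arm, which is assumed to vary like the rest.

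Neutrophils went the other way in value, again without a call. Hsph1 was at 11.3, 23.1 and 18.4 CPM in Scramble against 42.4 and 54.7 CPM (1.498 ± 0.37, edgeR adjusted p = 0.116), and Hspa1b at 250, 218 and 196 against 359 and 357 CPM (0.75 ± 0.19, adjusted p = 0.146). For 5 of the 10 genes both JAG2KO libraries lay above all Scramble libraries, and for Hsp90aa1 below, where 10.5% and 18.4% of all genes did so. The median over the 10 was 0.40, and that of all genes -0.01, with 0.416% of 6730 genes called. NK and T cell markers in these sums were also higher in JAG2KO, at 26.1 and 48.9 against 5.95 to 14.6 CPM and at 58.7 and 54.7 against 13.8 to 29.1 CPM. The part of these values in the differences was not tested.

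In tumour-like cells, where 8.16% of 10943 genes were called, Hspa1a was at 112, 70.1 and 75.4 CPM in Scramble against 127 and 142 CPM (0.71 ± 0.19, edgeR adjusted p = 0.0519). It was called without Scramble 1 (0.94, adjusted p = 0.00587), and without JAG2KO 2 the value was 0.62. In thinned cells the difference of Hspa1a turned negative, so its direction did not hold in every alternative. Hspd1 (0.32 ± 0.11, adjusted p = 0.12) and Hspe1 (0.29 ± 0.11, adjusted p = 0.133) did not overlap between groups either, and nor did Hsp90aa1, at 1784, 1772 and 2056 against 1535 and 1369 CPM (-0.32 ± 0.11, adjusted p = 0.122). That made 3 genes higher and 1 lower without overlap, where 16.2% and 24.3% of all genes were. Hspa1b was at 0.01 ± 0.17. In mature migratory dendritic cells 0 of 4689 genes were called (239 at an unadjusted p under 0.05); Hsph1 was at 67.7, 43.1 and 52.0 against 90.1 and 111 CPM (0.91 ± 0.28, adjusted p = 0.903), while Hspa1a, Hspa1b and Dnajb1 lay lower without overlap (6.93% of all genes lay higher and 11.1% lower in this way), by -0.22 ± 0.18, -0.31 ± 0.20 and -0.37 ± 0.24.

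In macrophages, the most numerous type, the 10 differences lay between -0.07 and 0.19, all 10 overlapped between groups, and the smallest edgeR adjusted p was 0.561, where 1.64% of 13843 genes were called, 0.824% higher and 0.816% lower. Hspa1a there differed by 0.19 ± 0.13 and Hspa8 by -0.01 ± 0.13. In cDC1 the range was -0.25 to 0.18 (0.198% of genes called, 0.0608% lower), in monocytes -0.40 to 0.07 (0.633%), in T cells -0.15 to 0.29 (0.274% called, 0.0684% lower), and in NK cells -0.08 to 0.54 (0 of 4562, 166 at an unadjusted p under 0.05). Mast cells or basophils, with 9 of the 10 genes tested and 0 of 1263 called (49 unadjusted), ranged from -1.06 to 0.22. Groups did not overlap for 1 of the 10 genes in each direction in cDC1, where 10.1% of all genes were higher and 10.9% lower without overlap. The counts were the same in T cells (6.43% higher and 12.6% lower), and in NK cells 2 genes were higher and 0 lower (8.13% and 8.4%). CD8 markers in the T cell sums were at 538 and 601 CPM in JAG2KO against 104, 75.1 and 90.8 CPM in Scramble. Regulatory T cell markers there were at 2662.5 and 1652 CPM against 2920, 3689 and 3600 CPM. The part of this mix of T cells in the T cell values was not tested.

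**Figure D5:**
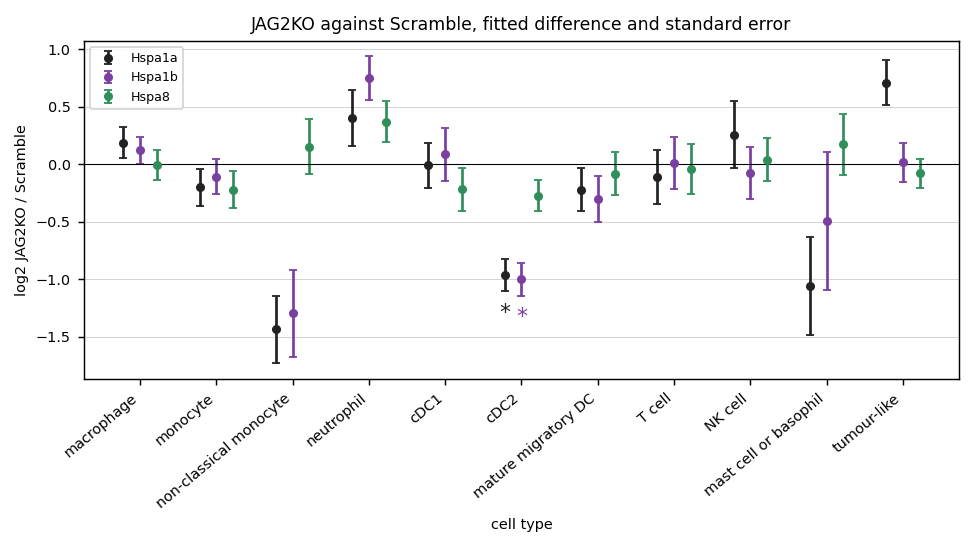
Fitted log2 ratio of JAG2KO over Scramble with its standard error for Hspa1a, Hspa1b and Hspa8 by cell type, with a star where the edgeR adjusted p is below 0.05. The stars stand at cDC2 only, for Hspa1a (-0.96) and Hspa1b (-1.002), and the values in macrophages lie near 0.

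The difference between types was itself tested as the JAG2KO effect in a type minus that in macrophages, over 10425 genes, and none of the 10 genes passed in any type. In cDC2 it was -1.15 ± 0.33 for Hspa1a (edgeR adjusted p = 0.16) and -1.11 ± 0.31 for Hspa1b (adjusted p = 0.159), where 0.144% of genes were called; without JAG2KO 2 the values were -1.18 (adjusted p = 0.36) and -1.08 (adjusted p = 0.424). The smallest adjusted p was 0.118, for Hsph1 in neutrophils (0.393% of genes called). The fall in cDC2 was therefore not shown to differ from the value in macrophages.

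Other chaperone genes, in 5 lists chosen with earlier results of these data known, and a list of 20 immediate early genes were counted in the same fits. Between JAG2KO and Scramble few of them were called. In cDC2 none of the 90 listed chaperone genes tested passed, and of the 20 immediate early genes Jun alone fell, by 0.72 ± 0.15 (edgeR adjusted p = 0.0482), with Egr1 at -0.89 ± 0.23 (adjusted p = 0.106). In tumour-like cells 5 of the 98 listed chaperone genes tested rose and 1 fell, where 8.16% of all genes were called (3.64% higher and 4.52% lower). There Hspb1, a small heat shock protein, rose by 2.16 ± 0.50, Hspa4l, of the Hsp110 family, by 0.67 ± 0.15, the Hsp90 co-chaperone Ptges3 by 0.51 ± 0.10, the chaperonin subunit Cct3 by 0.47 ± 0.12 and Dnajc19 of mitochondria by 0.80 ± 0.14, while Dnajb9, of the endoplasmic reticulum, fell by 0.86 ± 0.22 (all with an edgeR adjusted p under the threshold, the largest 0.0482). In the other 9 types no listed chaperone gene passed. Of the immediate early genes, Egr2 rose in macrophages by 1.44 ± 0.25 (edgeR adjusted p = 0.0439), and Dusp1 (1.10 ± 0.19) and Nfkbia (1.05 ± 0.19) rose in cDC1 (adjusted p = 0.0209 and 0.0237), where Hspa1a was at -0.01 ± 0.20.

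Against macrophages the lists separated the types more clearly. In tumour-like cells 17 of 25 Hsp70 and Hsp90 co-chaperones were higher and 2 lower, led by Bag2 (3.90 ± 0.20) and Ppid (1.84 ± 0.11). Of 14 subunits of the chaperonin TRiC and of prefoldin, 12 were higher and 1 lower, with Tcp1 at 1.07 ± 0.09. Of 16 mitochondrial chaperones and proteases, 10 were higher and 2 lower, with the protease Clpp at 1.48 ± 0.12. The medians of these 3 lists were 0.54, 0.75 and 0.55, with 38.2% of all genes higher and a median of all genes of -0.02. Hspb8 (4.46 ± 0.30) and Hspa13 (1.43 ± 0.11) were higher and Hspb1 (-2.91 ± 0.39) lower there. In cDC1, TRiC and prefoldin subunits were higher in 9 of 14 and lower in 0 (median 0.33) where 23.6% of all genes were higher, with Pfdn5 at 0.57 ± 0.11 and Cct5 at 0.52 ± 0.10. In cDC2, 4 of 14 were higher and 0 lower, near the 21.3% of all genes there. With library totals the counts were 6 higher and 1 lower in cDC1 and 3 and 3 in cDC2, where 19.7% and 17.1% of all genes were higher.

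Chaperones of the endoplasmic reticulum were lower in mature migratory dendritic cells: 16 of 22 were lower than in macrophages and 4 higher (median -1.21), where 33.2% of all genes were lower. Calr was lower by -1.59 ± 0.12, P4hb by -1.75 ± 0.13 and Hsp90b1, the Hsp90 of this compartment, by -1.62 ± 0.13, while Herpud1, of its degradation pathway, was higher by 1.83 ± 0.14. Against cDC1 and cDC2 16 of 22 were also lower and 3 higher (medians -1.51 and -1.34), where 23.3% and 22.8% of all genes were lower. In T cells 19 of 22 were lower and 0 higher (median -0.65), where 32.2% of all genes were lower, with P4hb at -1.55 ± 0.12. With library totals 16 stayed lower in each comparison of mature migratory cells and 15 in T cells. The share of all genes called lower was then 45.7% against macrophages, 31.3% against cDC1, 30% against cDC2 and 29% in T cells. The mitochondrial Hsp70 gene Hspa9 was lower than in macrophages in cDC1 (-0.65 ± 0.13), cDC2 (-0.66 ± 0.12), mature migratory dendritic cells (-1.82 ± 0.16), monocytes (-0.83 ± 0.11), T cells (-1.02 ± 0.13) and NK cells (-0.78 ± 0.15). It was also lower in non-classical monocytes (-0.90 ± 0.22) and in mast cells or basophils (-0.63 ± 0.23, edgeR adjusted p = 0.028).

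Immediate early genes, which dissociation is known to induce, differed between types. Against macrophages 16 of 20 were higher and 1 lower in neutrophils (median 1.31), where 30.5% of all genes were higher, and 12 were higher and 1 lower in monocytes (median 0.65), where 24.8% were. In NK cells 16 were lower and 1 higher (median -1.88), where 28.3% of all genes were lower, and in T cells 13 were lower and 4 higher (median -1.29), where 32.2% were. With library totals the counts were 13 higher and 4 lower in neutrophils (median 0.54), 12 and 2 in monocytes (median 0.49), 1 and 16 in NK cells and 4 and 13 in T cells. Of all genes, 17.5% were then higher in neutrophils and 18% in monocytes, and 27.6% were lower in NK cells and 29% in T cells. With the TMM scaling Hspa1a was called higher in monocytes (0.53), where the immediate early genes were higher. It was not called in neutrophils (0.10), NK cells (-0.42) or T cells (-0.24). With library totals Hspa1a lost its call in monocytes and was called lower in neutrophils, where 13 of the 20 immediate early genes stayed higher. The summed level of the 20 genes was 20104 to 25841 CPM in neutrophils, 11994 to 15970 in monocytes, 9894 to 13051 in cDC2, 4589 to 7494 in cDC1 and 2970 to 4079 in NK cells. Between cDC2 and cDC1, where Hspa1a differed by 0.10 ± 0.22, 15 of 20 were higher in cDC2 and 1 lower (median 0.98), where 13.5% of all genes were higher. The part of dissociation in the levels of the heat shock genes was not tested.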

How the data were processed

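Droplet single-cell RNA sequencing was made of CD45+/PI- cells of 3 Scramble and 2 JAG2KO tumour libraries. The authors deposited raw UMI counts per gene and barcode, made with cellranger 6.0.0 per the file headers; the submitters' processing notes name Seurat and GRCm38 (mm10). Per the labels, barcodes without a cell had been removed. Kept cells had 500 or more UMIs, 250 or more genes and no more than 10% of UMIs from mitochondria, and the 8% with the highest doublet scores (Scrublet, scanpy 1.11.5) were removed per library.

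Cells were assigned by marker UMIs with a gate whose rules were set after seeing the data. Macrophages had at least 30 UMIs of C1qa, C1qb and C1qc per 10000 and at least 4 of 8 markers. They had fewer than 3 markers of each of T cells, NK cells, B cells, neutrophils, mast cells or basophils, fibroblasts and endothelial cells. Markers of monocytes and dendritic cells did not exclude a cell from the macrophages. Other types had fewer C1q UMIs and at least 3 markers (monocytes 4), and neutrophils at least 30 UMIs of S100a8 and S100a9 per 10000. Both monocyte types, dendritic cells, T cells and NK cells also needed an anchor gene. Tumour-like cells had fewer C1q UMIs and more than 1 of Rhox5, Krt8 and Krt18, or were gated as fibroblasts with a UMI of Rhox5. Counts were summed per library and type with at least 20 cells and tested with edgeR 4.0.16 (quasi-likelihood, TMM, filterByExpr, Benjamini-Hochberg at 0.05, R 4.3.3), without a replicate block. The scripts were tested on simulated data. The 10 genes and the lists were chosen with earlier results of these data known. Named from each list were up to 4 genes with the smallest adjusted p, and the 5 genes most like Hspa1a and Hsp90ab1. Alternatives included DESeq2 1.42.0, other filters, thinned cells, a stricter gate, a block by replicate number, and fits that omit 1 library each.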

Additional observations from a re-analysis of the deposited data

How the results depend on the processing

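The fall of Hspa1a in cDC2 kept its direction and its call under all 16 alternatives (-0.79 to -1.05, adjusted p from 4.27e-08 to 0.0276), and that of Hspa1b under 15 of 16 (-0.83 to -1.05), the stricter gate being the exception. Over all results for single genes, 1099 of the recomputed values kept direction and call, 103 lost a call, 14 gained one and 7 turned. Library totals, cells of at least 3000 UMIs and a gate without the rule on tumour-like markers were added after seeing the data. The causes of the changes below were not tested, except that thinned cells hold fewer UMIs.

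Called genes between JAG2KO and Scramble were 227 in macrophages, 13 in cDC1, 35 in cDC2, 58 in monocytes, 28 in neutrophils, 16 in T cells, 893 in tumour-like cells and 0 in the other 4 types. DESeq2 called 963 in macrophages, 4 in mature migratory dendritic cells and 36 in monocytes, and 1 of the 10 chaperone genes in tumour-like cells, Hspa1a. Without a filter on low counts the calls were 1020 in macrophages, 88 in cDC1, 155 in cDC2, 5 in mast cells or basophils, 26 in mature migratory dendritic cells, 202 in monocytes, 120 in neutrophils, 27 in NK cells, 22 in non-classical monocytes, 86 in T cells and 1677 in tumour-like cells; of the 10 genes, 1 was then called in neutrophils (Hsph1), 2 in non-classical monocytes, 1 in tumour-like cells and Dnajb1 besides in cDC2. With at most 5% mitochondrial UMIs there were 126 in macrophages, 3 in mature migratory dendritic cells and 1 of the 10 genes in tumour-like cells; with doublets kept there were 5 in mature migratory dendritic cells. Cells thinned to 1000 UMIs gave 1 in cDC1, 14 in cDC2, 1 in NK cells, 26 in T cells and 7 in tumour-like cells, where Hspa1a turned to -0.21. The stricter gate left 1 of the 10 genes called in cDC2, turned Hspe1 there to -0.0769, and gave 4 genes in mature migratory dendritic cells and 1 of the 10 in tumour-like cells. Library totals gave 37 in monocytes, and cells of at least 3000 UMIs gave 544 in macrophages and 8 in T cells. The gate without the tumour rule gave 8 in cDC1, 29 in monocytes and 254 in mature migratory dendritic cells, 1 of them among the 10. The share of mature migratory dendritic cells with a UMI of Hsph1 turned from -2.63 to 0.63 percentage points without thinning.

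Between cell types, thinned cells gave fewer calls against macrophages: 1250 in cDC1 (4 of the 10 genes), 1406 in cDC2, 1019 in mast cells or basophils, 1872 in mature migratory dendritic cells, 1733 in monocytes, 2724 in neutrophils, 1680 in NK cells, 592 in non-classical monocytes, 2337 in T cells and 2145 in tumour-like cells. They gave 478 between cDC2 and cDC1, 1154 between mature migratory cells and cDC1 and 1248 between mature migratory cells and cDC2, each with 1 of the 10 genes. Of the 10 genes, mature migratory cells against cDC1 had 7 called with the stricter gate, library totals or at least 3000 UMIs. Against cDC2 they had 1 called with no filter or at least 3000 UMIs, and 4 without the tumour rule. That rule's absence also gave 3 in monocytes against macrophages and 2 in cDC2 against cDC1. Library totals gave 4 in mast cells or basophils and 3 in mature migratory cells against macrophages. With at least 3000 UMIs, 4176 genes were called in neutrophils and Hsp90aa1 turned to -0.0637.

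With 1 library left out, an arm may hold 1 library, assumed to vary like the rest. Called genes then ranged from 1 (without Scramble 2) to 521 (without JAG2KO 1) in macrophages, 4 to 32 in cDC1, 21 to 46 in cDC2, 44 to 102 in monocytes, 5 to 37 in neutrophils, 6 to 76 in T cells, 379 to 679 in tumour-like cells, 0 to 9 in mast cells or basophils, 0 to 7 in mature migratory cells, 0 to 2 in NK cells and 0 to 33 in non-classical monocytes. Of the 10 genes, 0 to 2 were called in non-classical monocytes and 0 to 1 in tumour-like cells. Against macrophages they ranged from 3 to 7 in mature migratory cells, 3 to 6 in monocytes and 2 to 4 in mast cells or basophils, and between subsets from 3 to 5 (mature migratory over cDC1), 1 to 2 (over cDC2) and 2 to 3 (cDC2 over cDC1). In cDC2, Hsp90ab1 ranged from -0.0978 to 0.0563 and Hspe1 from -0.0449 to 0.156. For the difference from the macrophage effect, leaving out JAG2KO 2 gave 2 genes in mast cells or basophils, 1 in NK cells (31 with it), 6 in non-classical monocytes and 8 in T cells (63 with it).

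Scramble and JAG2KO libraries share the numbers 1 and 2, but the labels tie them to no animal or day. Deviations of same-numbered libraries over 13843 genes in macrophages correlated at 0.08 and 0.22. Scramble 3, which has no partner, correlated with JAG2KO 1 at 0.06. The deviations of JAG2KO 1 and JAG2KO 2 from their mean mirror each other, so these values cannot decide on a pairing. With the replicate block the calls were 956 in macrophages, 72 in cDC1, 143 in cDC2, 5 in mature migratory cells, 147 in monocytes, 113 in neutrophils, 14 in NK cells and 37 in T cells, and of the 10 genes 1 was called in neutrophils, Hsph1 (1.53, adjusted p = 0.0127). The pairing changed no other count of calls among the 10 genes. Limits of depth were closest in types of 20 to 37 cells per library, where 8 or 9 of the 10 genes passed the filter. The counts of listed genes with library totals, given beside the lists, were added after seeing the data.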
